A study of Mus musculus with 170 samples.

Results

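The small heat shock protein genes of muscle were read in single cells from the ventricles of mouse hearts at embryonic day 9.5 (E9.5). The genes were chosen by name and comprised Hspb1, Hspb2, Hspb3, Hspb6, Hspb7, Hspb8 and Cryab, which are 7 of the 40549 rows of the deposited expression table. All 7 were found there. The control cells, labelled wild type, came in the study's account from embryos with floxed Dgcr8 on both alleles (Dgcr8 loxP/loxP) and the Rosa26 mT/mG reporter on 1 allele but no Cre. The knockout cells (cKO), labelled Mesp1Cre/+; Dgcr8-/-, came from embryos with the same floxed alleles and reporter plus 1 Mesp1-Cre allele, so that Dgcr8, a subunit of the microprocessor that cuts primary microRNAs, was to be lost in descendants of Mesp1-expressing mesoderm. Both groups were of strain C57BL/6, shared the floxed background, and were sequenced in 2 batches. Of the 170 labelled cells, 143 had a column in the table, namely 74 of control embryos, split 35 and 39 between the batches, and 69 of cKO embryos, split 35 and 34. The labels name no embryo, so each genotype was treated as 1 sample, no test between genotypes was possible, and every SD below describes the scatter across cells.

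Small heat shock proteins are chaperones that work without ATP. They share an alpha-crystallin domain, assemble into oligomers, and hold unfolding proteins until ATP-dependent chaperones refold them or they are degraded. Striated muscle makes many of them, where they bind sarcomeric actin, titin, desmin and filamin, and their heat-inducible members carry heat shock elements to which heat shock factors bind.

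The genes lie at separate places in the genome except for a pair. In GRCm38, with GENCODE M21 annotation, Hspb1 was at chr5:135887919-135889563 (plus strand), Hspb3 at chr13:113662896-113663676 (minus), Hspb6 at chr7:30552178-30555443 (plus), Hspb7 at chr4:141420779-141425311 (plus) and Hspb8 at chr5:116408491-116422864 (minus). Hspb2 at chr9:50751078-50752354 (minus) and Cryab at chr9:50751325-50756636 (plus) overlap on opposite strands. Their exons share 252 bases, which is 30.2% of the exonic bases of Hspb2 and 17% of those of Cryab. The library protocol does not mark strand, so reads from the shared stretch cannot be told apart, and the values of both genes carry that uncertainty. Hspb6 overlaps exons of Proser3, Lin37 and the miRNA gene Gm38670, by at most 5.31% of its exonic bases.

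Promoter windows from 250 bases before to 50 bases after the annotated start were found in RefSeq (GRCm38.p6) for 5 of the 7 genes, all but Hspb2 and Cryab. The windows of Hspb1, the most abundant of the genes here, and of Hspb3 and Hspb8, which had the largest genotype differences, are shown 5′ to 3′ on the strand of the gene. Capitals mark matches to a heat shock element, searched on both strands as GAANNTTC or TTCNNGAA, and in Hspb3 also a MEF2 site.
Hspb1 (chr5:135887669-135887968, plus strand): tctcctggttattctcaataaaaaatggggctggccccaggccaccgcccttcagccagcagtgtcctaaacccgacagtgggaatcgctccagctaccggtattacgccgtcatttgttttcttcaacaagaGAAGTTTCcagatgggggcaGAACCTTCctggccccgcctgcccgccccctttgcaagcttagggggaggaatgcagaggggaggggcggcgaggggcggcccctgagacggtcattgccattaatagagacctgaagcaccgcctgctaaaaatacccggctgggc
Hspb3 (chr13:113663627-113663926, minus strand): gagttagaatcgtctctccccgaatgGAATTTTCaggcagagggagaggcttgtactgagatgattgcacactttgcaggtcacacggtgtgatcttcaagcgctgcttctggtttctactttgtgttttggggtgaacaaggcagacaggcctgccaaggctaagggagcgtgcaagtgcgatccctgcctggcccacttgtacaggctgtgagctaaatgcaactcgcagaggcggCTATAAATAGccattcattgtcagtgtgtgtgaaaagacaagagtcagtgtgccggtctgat
Hspb8 (chr5:116422815-116423114, minus strand): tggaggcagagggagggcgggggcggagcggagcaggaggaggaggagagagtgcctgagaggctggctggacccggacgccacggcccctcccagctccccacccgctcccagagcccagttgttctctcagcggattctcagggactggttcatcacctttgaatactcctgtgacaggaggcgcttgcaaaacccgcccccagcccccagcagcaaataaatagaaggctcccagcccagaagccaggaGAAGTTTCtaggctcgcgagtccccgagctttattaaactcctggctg
Counted from the start site, the Hspb1 window held heat shock element letters beginning at −117 and −97, the Hspb3 window at −224 and the Hspb8 window at 3. The MEF2 site of Hspb3, to which the muscle transcription factors of that name bind, began at −12 and contained the TATA box letters TATAAA. Searched the same way on both strands, 15.1% of all 32851 windows held a heat shock element, 13.6% TATAAA, 3.19% a MEF2 site, 1.63% a CArG box and 72.3% an E-box (CANNTG). The Hspb7 window held an E-box and no match to the other motifs. Of the pair of windows of Hspb6, 1 held a heat shock element and TATAAA and the other held neither. A match describes the letters of a window and says nothing about binding.

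Expression was read as TPM, the share of all transcripts scaled for transcript length, and compared as mean log2(TPM + 1). Read depth is unknown from such values, and the count of genes above 0 TPM per cell (detected genes) was used in its place. Detected genes ranged from 2063 to 14139 in control cells (median 8819.5) and from 4244 to 11044 in cKO cells (median 8456). Cells were sorted into 5 clusters with 55 marker genes, none of them a small heat shock gene. In the cardiomyocyte-like (CM-like) cluster, of 96 cells, each of the 15 cardiomyocyte markers was raised. It comprised 29 cells of the controls, split 19 and 10 between the batches, and 67 of the cKO, split 33 and 34. Hspb2 and Hspb7 were among its 10 leading genes although neither had been used to build it. The study's own cardiomyocyte marker list did hold Hspb2 and Cryab. The other control cells were 22 endothelial-like, 13 epicardial-like (which also had 9 of 14 mesenchymal markers raised), 3 erythroid-like and 7 of an unnamed cluster led by mitochondrial transcripts. Only the unnamed cluster held other cKO cells (2), so genotypes were compared in CM-like cells alone. Of the CM-like control cells, 3 also carried epicardial or erythroid markers at a mean log2 level above 4, against 0 of the cKO cells, and 1 had 41.1% of its TPM in mitochondrial transcripts. Dgcr8 itself had TPM above 0 in 19 of 29 control and 32 of 67 cKO CM-like cells, with a difference in mean log2 level of −0.95 (−0.20 in batch 1 and −1.72 in batch 2). The table gives gene totals, so reads from the floxed exon were not separated from the rest.

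In control ventricles the small heat shock genes were higher in CM-like cells than in the rest, apart from Hspb6. A gene was called higher or lower when mean log2(TPM + 1) differed by at least 1 in the same direction in both batches, provided that more than 10 of the compared cells had TPM above 0. By this rule 6 of the 6 genes that could be compared were higher in CM-like than in other control cells, where 6.7% of 14517 genes were, and 0 were lower, where 3.25% were. Their median difference was 5.19 log2 units (5.19 in batch 1 and 5.31 in batch 2), against a median of −0.04 over all genes. Hspb2 (7.41) ranked 2 of 14517 genes by this difference, Hspb7 (6.16) ranked 20, Cryab (5.37) 35, Hspb1 (5.01) 44, Hspb3 (4.42) 62 and Hspb8 (3.63) 100. Other control cells are a mixture, and the genes differed in which of them they reached.

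**Figure D1:**
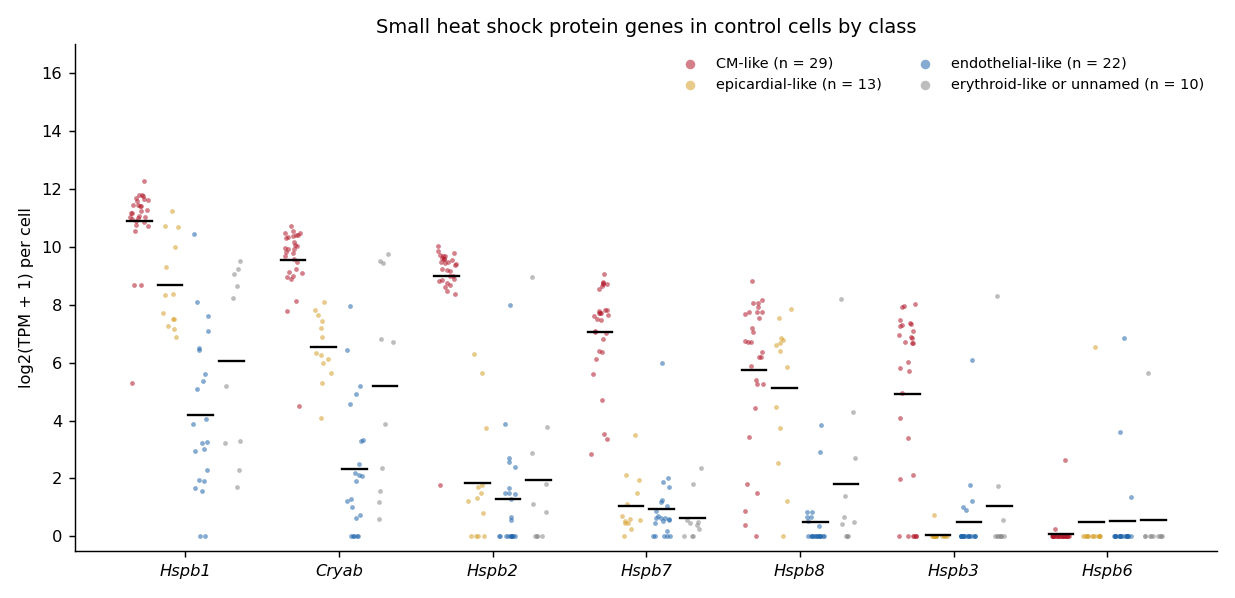
Each point is 1 control cell, placed by its log2(TPM + 1) (vertical axis) for each gene (horizontal axis) and coloured by class, with the class mean as a black line. Hspb2, Hspb7 and Hspb3 sit high in CM-like cells and are low in most others, Hspb1, Cryab and Hspb8 are also raised in epicardial-like cells, and Hspb6 is near 0 in every class.

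Hspb7, known as the cardiovascular small heat shock protein and a partner of filamin C, separated the classes most cleanly. It ranged from 6.22 to 533 TPM in CM-like control cells (median 194) and from 0 to 62.01 TPM in the other control cells (median 0.482). Of the 29 CM-like cells, 24 lay above every other control cell, and 43 of the 45 other cells lay below every CM-like cell. Hspb2, which binds the myotonic dystrophy protein kinase, ranged from 2.43 to 1033 TPM in CM-like cells (median 655) and from 0 to 494 TPM in the others (median 1.15). Only 1 CM-like control cell fell below 10 TPM of Hspb2, and 7 of 45 other cells reached that level. Hspb3, which assembles with Hspb2, was found above 0 in 23 of 29 CM-like control cells (79.3%, exact 95% interval 60.3 to 92.0%) and in 9 of 45 others (20%). At 10 TPM or more the counts were 20 of 29 and 2 of 45. The other control cells above 0 were 7 of 16 in batch 1, at up to 2.42 TPM, and 2 of 29 in batch 2. In endothelial-like cells, the class taken as a background for a muscle gene, Hspb3 was above 0 in 5 of 22 cells and at 10 TPM or more in 1. That cell also held the 62.01 TPM of Hspb7 and 252 TPM of Hspb2, and whether it was a mixed cell was not tested. These intervals cover counting error only.

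Hspb1, Cryab and Hspb8 were shared with the epicardial-like cells. Hspb1, the phosphorylated actin-associated member known as HSP27 in humans, had a mean log2 level of 10.90 ± 1.33 (SD, n = 29 cells) in CM-like, 8.67 ± 1.54 (n = 13) in epicardial-like and 4.18 ± 2.73 (n = 22) in endothelial-like control cells. Cryab, the alpha-B-crystallin that binds desmin and titin, followed the same order with 9.55 ± 1.21, 6.52 ± 1.14 and 2.34 ± 2.26. Both genes were at 10 TPM or more in 13 of 13 epicardial-like cells, whereas Hspb1 was in 11 and Cryab in 5 of 22 endothelial-like cells. Hspb8, which works with the co-chaperone Bag3 to route damaged filamin to autophagy, had a mean log2 level of 5.12 ± 2.52 in epicardial-like and 5.75 ± 2.56 in CM-like cells. CM-like minus epicardial-like, it differed by 0.63 with the batches pooled, and by 1.45 in batch 1 (19 and 4 cells) and 1.07 in batch 2 (10 and 9 cells). In endothelial-like cells it was at 0.49 ± 1.00, and 1 of 22 cells reached 10 TPM. The epicardial-like minus endothelial-like difference was 4.48 for Hspb1 (3.24 in batch 1 and 5.04 in batch 2), 4.19 for Cryab (5.44 and 3.63) and 4.63 for Hspb8 (3.41 and 5.17), while Hspb2 (0.57), Hspb7 (0.10) and Hspb3 (−0.44) differed by less than 1. Median detected genes in CM-like, epicardial-like and endothelial-like control cells were 8458, 9629.5 and 10293 in batch 1 and 9679, 8655 and 8538 in batch 2, so CM-like cells had the fewest in batch 1 and the most in batch 2.

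Hspb6, a target of cyclic AMP-dependent kinase that is abundant in adult heart and smooth muscle, was barely detected. It was above 0 in 2 of 29 control (6.90%, 0.846 to 22.8%) and 3 of 67 cKO CM-like cells (4.48%, 0.933 to 12.5%), and the highest value was 90.8 TPM in a cKO cell. Among other control cells it was above 0 in 5 of 45, up to 114 TPM in an endothelial-like cell. It had too few detected cells to enter either comparison.

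Within CM-like cells the order of the genes was the same in both genotypes. By mean log2(TPM + 1), which is scaled for length, it ran Hspb1, Cryab, Hspb2, Hspb7, Hspb8, Hspb3, Hspb6. In control cells Hspb1 exceeded Cryab in 28 of 29 cells, by 1.35 ± 0.70 log2 units per cell. Cryab exceeded Hspb2 in 24 of 29 cells but by only 0.55 ± 0.85, and Hspb8 exceeded Hspb3 in 16 of 29 by 0.84 ± 3.92. Both mean differences were smaller than their SD across cells, though Cryab was above Hspb2 in most cells. The same held for Cryab in cKO cells (58 of 67, 0.90 ± 1.90). In cKO cells Hspb1 exceeded Cryab in 66 of 67 cells (1.83 ± 1.33) and Hspb7 exceeded Hspb8 in 61 of 67 (3.16 ± 3.08). Hspb1 was the most abundant of the 7 genes in 27 of 29 control and 64 of 67 cKO cells. It made up 53.1% ± 11 of their summed TPM per control cell and 59.6% ± 13.1 per cKO cell, followed by Cryab with 21.4% ± 7.08 and 19.4% ± 7.85. Together the 7 genes took a median of 0.438% of all TPM in control CM-like cells (0.00767 to 0.755%), 0.497% in cKO CM-like cells (0.0533 to 1.34%) and 0.0173% in other control cells (0 to 0.252%). Between genotypes the order depended on the batch, with medians of 0.438% in control and 0.413% in cKO CM-like cells of batch 1, and 0.451% and 0.565% in batch 2. The median number of the 7 genes above 0 was 6 per control and 5 per cKO CM-like cell. In batch 1 it was 6 in both genotypes. In batch 2 it was 6 in control and 5 in cKO cells, which there also had fewer detected genes (median 7765 against 9679).

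Between genotypes, the abundant small heat shock genes of CM-like cells differed little, and Hspb3 was lower in cKO cells. By the same rule 1 of the 6 compared genes was lower in cKO cells (Hspb3), where 2.73% of 15150 genes were, and 0 were higher, where 2.55% were. The median difference of the 6 genes, cKO minus control, was −0.23 (−0.09 in batch 1 and −0.37 in batch 2), and that of all genes was 0.03 (0.17 and −0.22), so the batches were themselves offset. Control and cKO cells also differed in detected genes in opposite ways in the 2 batches, with medians of 8458 against 9845 in batch 1 and 9679 against 7765 in batch 2. In a linear model over cells with batch and log2 of detected genes, the differences given below became −2.34 for Hspb3 (from −2.43), −1.05 for Hspb8 (from −1.18), 0.42 for Hspb1 (from 0.43) and 0.62 for Hspb7 (from 0.67), and Hspb3 was again the 1 gene called.

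**Figure D2:**
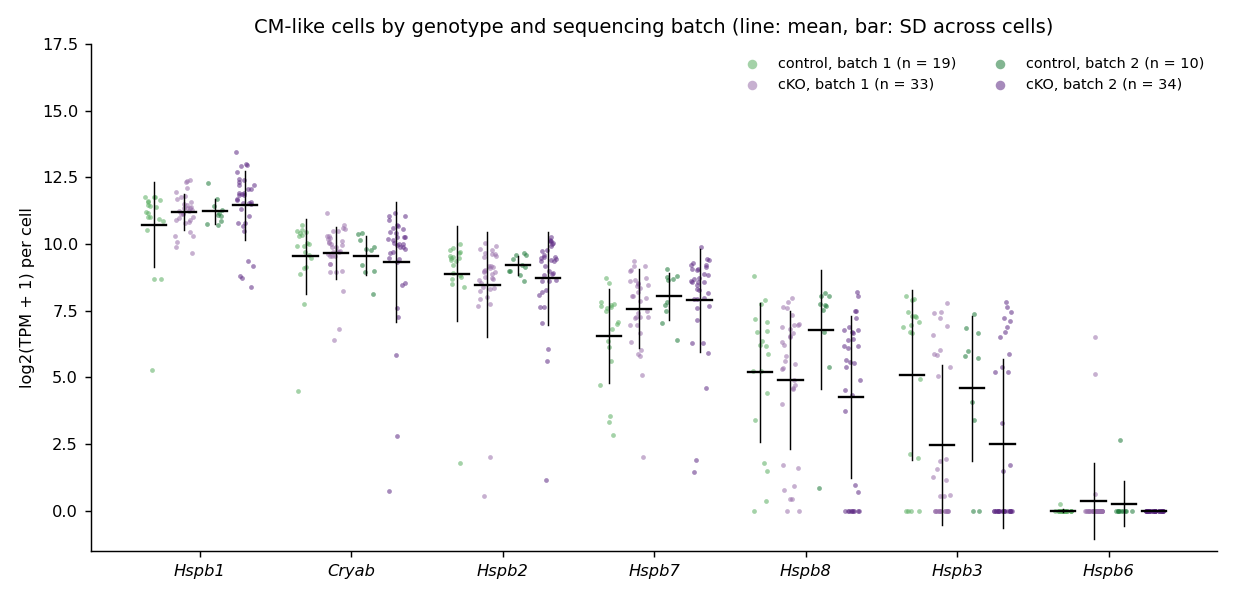
Each point is 1 CM-like cell, placed by its log2(TPM + 1) (vertical axis) for each gene (horizontal axis), in 19 control and 33 cKO cells of batch 1 and 10 control and 34 cKO cells of batch 2. Lines are means and bars the SD across cells. Hspb3 is lower in cKO cells in both batches, Hspb8 mainly in batch 2, and the 4 genes to the left overlap.

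Hspb3 ranged from 0 to 262 TPM in control CM-like cells (median 101) and from 0 to 229 TPM in cKO cells (median 0.472). The highest cells of both genotypes reached like values, and the groups differed in how many cells were low. Mean log2 level was 4.92 ± 2.99 (n = 29 cells) and 2.49 ± 3.07 (n = 67 cells), a difference of −2.43 (−2.63 in batch 1 and −2.07 in batch 2), which placed Hspb3 at rank 15097 of 15150 genes. Hspb3 was above 0 in 15 of 19 control (78.9%, 54.4 to 94.0%) and 19 of 33 cKO cells (57.6%, 39.2 to 74.5%) of batch 1, and in 8 of 10 (80%, 44.4 to 97.5%) and 15 of 34 cells (44.1%, 27.2 to 62.1%) of batch 2. At 10 TPM or more it was found in 20 of 29 control (68.97%, 49.2 to 84.7%) and 23 of 67 cKO cells (34.3%, 23.2 to 46.9%). These intervals cover counting over cells and not the spread between embryos. Among cells in which Hspb3 was above 0, the difference was −2.18 in batch 1 but −0.03 in batch 2. That contrast depends on counting low values as positive. In batch 1, 11 of the 19 cKO cells above 0 reached 10 TPM, against 13 of 15 control cells. In batch 2 these counts were 12 of 15 cKO and 7 of 8 control cells. At 10 TPM or more the batches were alike, with 68.4% of control and 33.3% of cKO cells in batch 1, and 70% and 35.3% in batch 2. The difference in linear mean TPM was smaller, −1.19 as a log2 ratio of mean TPM + 1, and was then not past 1 in both batches.

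**Figure D3:**
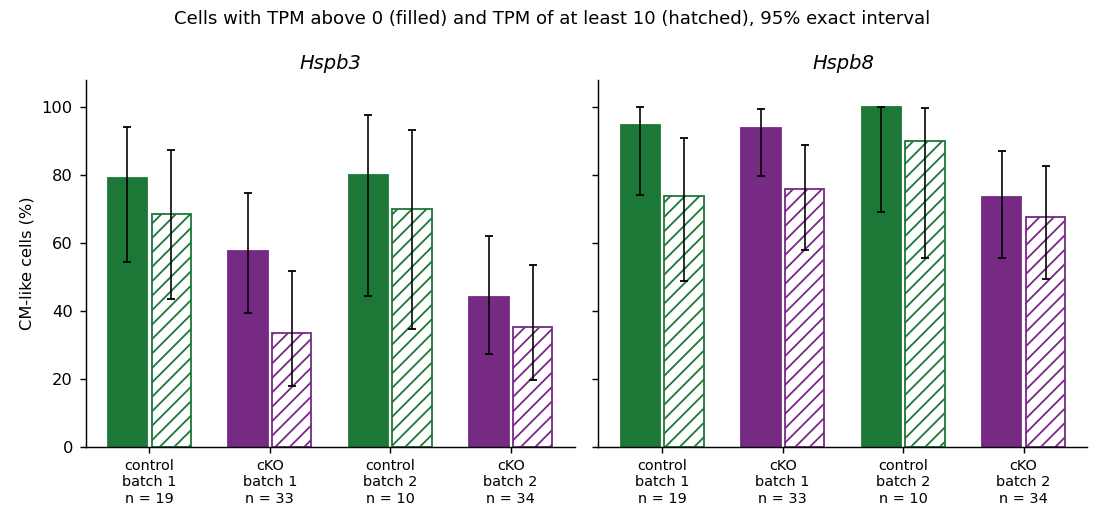
Bars give the percent of CM-like cells (vertical axis) with TPM above 0 (filled) and TPM of at least 10 (hatched) for Hspb3 (left) and Hspb8 (right), by genotype and batch, with exact 95% intervals. The share of Hspb3-positive cells is lower in cKO cells in both batches (57.6% against 78.9% and 44.1% against 80%), whereas that of Hspb8 is close in batch 1 (93.9% against 94.7%).

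Hspb8 gave different values in the 2 batches. It ranged from 0 to 447 TPM in control CM-like cells (median 103) and from 0 to 297 TPM in cKO cells (median 47.1). The mean log2 levels were 5.75 ± 2.56 and 4.58 ± 2.83, a difference of −1.18, of which batch 1 showed −0.30 and batch 2 −2.53. Hspb8 was above 0 in 18 of 19 control and 31 of 33 cKO cells of batch 1, but in 10 of 10 control and 25 of 34 cKO cells (73.5%, 55.6 to 87.1%) of batch 2. Across cKO cells the correlation of its level with detected genes (Pearson's r) was 0.40 over 33 cells of batch 1 and 0.40 over 34 of batch 2, and across control cells 0.26 over 19 and 0.92 over 10. Adjusted for batch and detected genes, the difference was −1.05. Without the 3 control cells that carried markers of another class the difference was −0.92. Neither Hspb3 nor Hspb8 was seen in 9 of 67 cKO and 0 of 29 control CM-like cells, and 8 of those 9 were in batch 2.

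Hspb1 ranged from 38.1 to 4952 TPM in control CM-like cells (median 2308) and from 334 to 11100 TPM in cKO cells (median 2842). All cells expressed it and the groups overlapped, although 11 of 67 cKO cells lay above the highest control cell. The difference was 0.43 (0.47 in batch 1 and 0.22 in batch 2), under 1 SD of either group (1.33 and 1.03). Cryab ranged from 21.8 to 1663 TPM in control (median 960) and from 0.676 to 2298 TPM in cKO cells (median 987). Its difference was −0.06 (0.12 and −0.24), the smallest of the 6 genes, and its sign depended on the batch. Hspb2 ranged from 2.43 to 1033 TPM (median 655) in control and from 0.476 to 1237 TPM (median 502) in cKO cells, with a difference of −0.40 (−0.42 and −0.49). Hspb7 ranged from 6.22 to 533 TPM (median 194) in control and from 1.72 to 950 TPM (median 313) in cKO cells. Its difference was 0.67, made of 1.02 in batch 1 and −0.15 in batch 2, and 44 of 67 cKO cells lay above the control median.

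**Figure D4:**
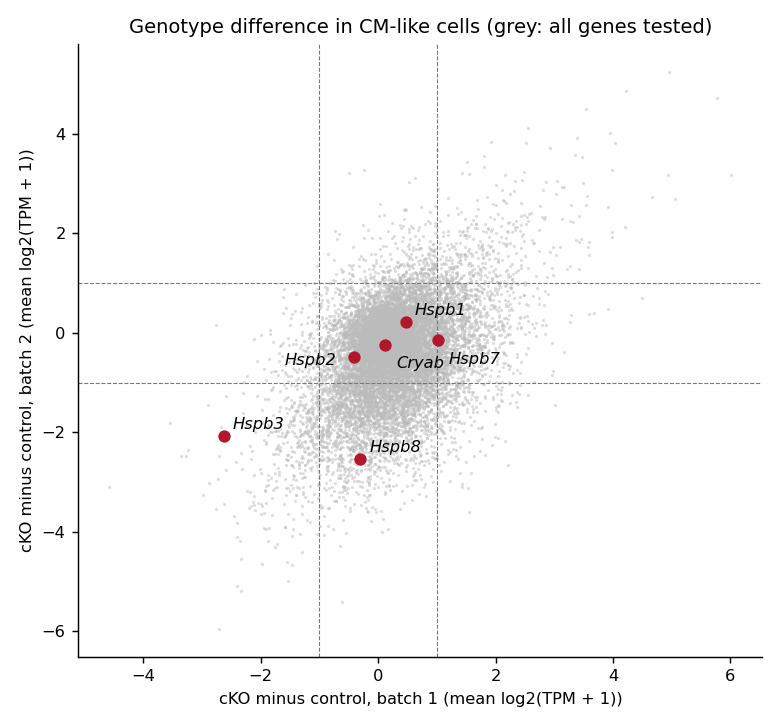
Each grey point is 1 of the 15150 genes tested, placed by its cKO minus control difference in mean log2(TPM + 1) in CM-like cells of batch 1 (horizontal axis) and batch 2 (vertical axis), with dashed lines at 1 and −1. Of the 6 small heat shock genes, in red, Hspb3 alone lies past −1 in both batches, Hspb8 does so in batch 2 only, Hspb7 lies at 1.02 in batch 1 only, and the other 3 lie within the lines.

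Across CM-like cells of 1 genotype and batch, correlations among Hspb1, Hspb2, Hspb7 and Cryab were positive in both genotypes and both batches. In cKO cells Pearson's r of log2(TPM + 1) was 0.60 in batch 1 (33 cells) and 0.68 in batch 2 (34 cells) for Hspb1 with Cryab, 0.53 and 0.62 for Hspb1 with Hspb7, and 0.68 and 0.43 for Hspb7 with Cryab. The overlapping pair Hspb2 and Cryab gave 0.82 and 0.33, and both were at 10 TPM or more in 62 of 67 cKO and 28 of 29 control cells. Hspb3 and Hspb2, whose proteins assemble together, gave 0.25 and 0.28. In control cells, of which there were 19 in batch 1 and 10 in batch 2, the values were 0.91 and 0.36 for Hspb1 with Cryab, 0.60 and 0.30 for Hspb1 with Hspb7, and 0.48 and 0.90 for Hspb7 with Cryab. Hspb2 gave 0.84 and 0.75 with Cryab and 0.24 and 0.71 with Hspb3 in control cells. These values are descriptions, since cells of a batch share preparation. In cKO cells the levels of Hspb1 and Cryab also correlated with detected genes, at 0.68 and 0.63 in batch 2 and at 0.00 and 0.30 in batch 1. A control cell of batch 1 held the lowest control log2 levels of Hspb1 (5.29), Hspb2 (1.78) and Cryab (4.51). In batch 1 the cKO cells included levels of Hspb2 as low as 0.56 and 2.04, with Cryab at 6.81 and 6.39. How far such low cells set the correlations was not tested.

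Among 5752 genes at 1 TPM or more in over 50% of cKO CM-like cells, those most like each member, by the lower of the within-batch correlations, were named for 5 members. For Hspb2 they were Popdc2 (0.67), a cyclic AMP-binding membrane protein of striated muscle, the glycolytic enzyme Tpi1 (0.62) and the caveolar coat gene Ptrf (0.60). For Cryab they were the actin-capping subunit Capzb (0.70), the glutathione peroxidase Gpx3 (0.68) and Actr2 (0.68) of the Arp2/3 complex. For Hspb7 they were Uqcrc1 (0.67) of respiratory complex III, Chmp5 (0.63) and Mmd (0.60), and for Hspb1 Gm9817 (0.62), Skp1a (0.62) and the actin-disassembly factor Wdr1 (0.61). The values for Hspb8 were lower, with B4galt1 (0.51), Ccdc6 (0.46) and Aplp2 (0.45). Hspb3 and Hspb6 were in too few cells to be included. The named genes were picked as the highest of 5752 by the same values that are printed, which therefore tend to overstate the likeness. Over control CM-like cells their correlations ran from 0.18 (Ptrf with Hspb2) to 0.71 (Skp1a with Hspb1), with B4galt1 at 0.20 and Aplp2 at 0.27 with Hspb8. The list is a description, and no link between these genes was tested.

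The chaperones around the small heat shock proteins were read by the same rule, which 2.55% of all 15150 genes passed as higher and 2.73% as lower. The few calls in these short lists are given as counts, and nothing is read from them about a list. Of the other small heat shock genes, the lens gene Cryaa and the sperm-tail gene Odf1 were listed at 0 in all 96 CM-like cells, and Hspb9, a testis gene, was above 0 in 3. Hspb11, which is an intraflagellar transport gene despite its name, differed by −1.05 (−0.76 and −1.57) and was not called. Of 19 compared HSP70, HSP40 and HSP110 genes, 0 were higher and 1 lower, namely the HSP110 gene Hsph1 (−1.97, with −1.40 in batch 1 and −2.97 in batch 2). Of 10 chaperonin genes 1 was lower, the mitochondrial co-chaperonin Hspe1 (−1.32, with −1.13 and −1.47). Of 10 HSP90 genes and co-chaperones 0 were called, and the extremes were Hsp90b1 of the endoplasmic reticulum (1.14, with 1.15 and 0.99) and the HSP90 activator Ahsa1 (−1.24, with −0.15 and −2.64). Of 10 BAG and quality control genes 0 were called, between Bag4 (0.85) and Bag1 (−1.60). Bag3, the partner of Hspb8, differed by −0.78 (−0.27 and −2.35), and the heat shock factor Hsf1 by −1.39 (−0.45 and −2.53). Like Hspb8, both were lower mainly in batch 2. The mean log2 level of Bag3 in batches 1 and 2 was 2.74 and 6.09 in control cells and 2.47 and 3.74 in cKO cells. Hsf2 differed by −0.45 (−0.27 and −0.85). The list medians were −0.09, −0.42, −0.14 and 0.06 for the HSP70, chaperonin, HSP90 and BAG lists, against 0.03 over all genes. In the same order they were 0.22, 0.07, 0.13 and 0.33 in batch 1, against 0.17 over all genes. In batch 2 they were −0.77, −1.06, −0.75 and −0.70, against −0.22. The list medians were thus also lower in batch 2, but Hspb8 (−2.53), Bag3 (−2.35) and Hsf1 (−2.53) lay below each of them. Whether the lower values of these genes and of the lists have a common source was not tested.

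**Figure D5:**
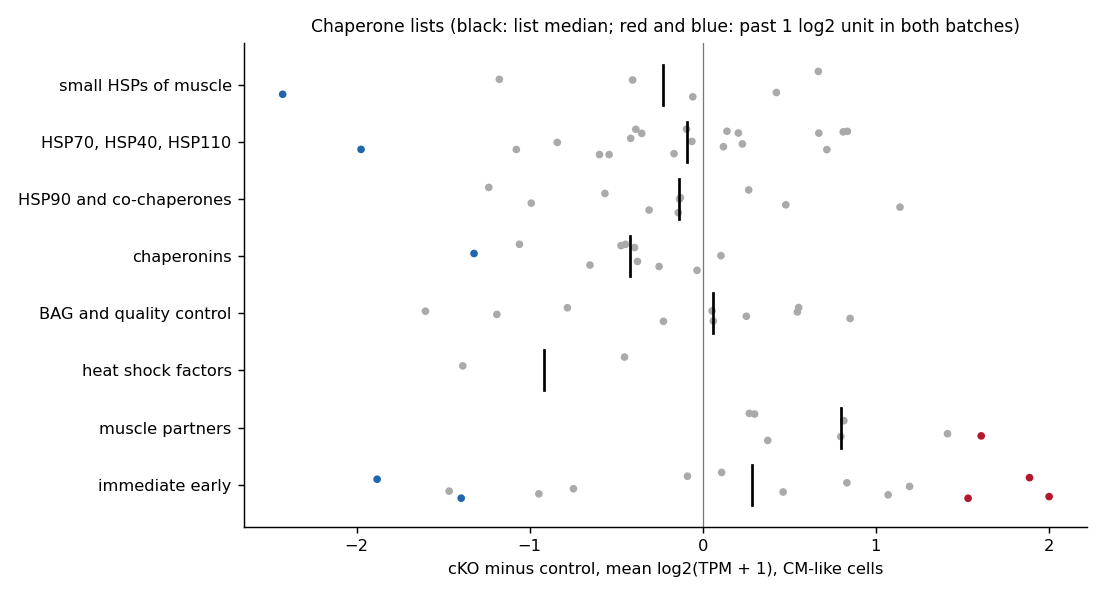
Each point is 1 gene, placed by its cKO minus control difference in mean log2(TPM + 1) in CM-like cells (horizontal axis) and its list (vertical axis), with list medians in black. Blue and red points lie past 1 log2 unit in both batches. Hspb3 (−2.43), Hsph1 (−1.97) and Hspe1 (−1.32) are the only lower chaperone genes by this rule among those plotted, and the heat shock factor list rests on 2 genes.

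Of 7 muscle proteins that small heat shock proteins bind or that stand beside them in the sarcomere, 1 was called, the intermediate filament gene Vim (1.61, with 1.69 and 1.23), beside 2.55% of all genes, and the list median was 0.80. Desmin (Des), a partner of Cryab, differed by 0.27 (0.64 and −0.38) and filamin C (Flnc), a partner of Hspb7, by 0.80 (0.88 and 0.14). Titin (Ttn), which Cryab also binds, differed by 1.42 (0.84 and 2.24) and was not called. Of 14 immediate early genes that respond to cell dissociation, 3 were higher in cKO cells (Jun 1.53, Jund 1.89 and Atf3 2.00) and 2 lower (Junb −1.40 and Zfp36 −1.88), beside 2.55% and 2.73% of all genes. The list median was 0.29 (−0.47 in batch 1 and 0.16 in batch 2). Xist was above 0 in 66 of 67 cKO CM-like cells, with a mean log2 level of 4.62. It was also above 0 in 20 of 29 control CM-like cells, but at no more than 0.276 TPM, with a mean of 0.08. The mean log2 level of the Y-linked Ddx3y was 0.07 in cKO and 2.99 in control cells. The sex of the embryos and the genotype therefore cannot be told apart in these cells. The 7 small heat shock genes lie on autosomes, but their position does not separate sex from genotype, and an effect of sex on them was not tested.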

How the data were processed

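Single ventricular cells were picked by hand after trypsin and collagenase digestion, amplified with Smart-seq2 and tagmented with Tn5. The authors quantified reads with Salmon against mm10 (version and annotation release not given in the sources used here), and the deposited values are TPM per gene and cell, without counts or molecular identifiers, so depth is unknown. Columns were matched to labels by cell name (143 of 170 labelled samples, the other 27 not analysed here). Here, in Python 3.11.15 with NumPy 2.4.6, pandas 2.3.3 and SciPy 1.17.1, log2(TPM + 1) was averaged over cells, pooled and within each batch. A gene was compared with TPM above 0 in more than 10 of the compared cells, and called at a difference of at least 1 in the same direction in both batches. No p-value was computed. Clusters came from Ward linkage of z-scored values of 55 markers, and a class name required at least 3 markers. No doublet caller was run. Shares have exact (Clopper-Pearson) 95% intervals. The code was tested on simulated data. The genes named in the text are the 7 members, all listed other small heat shock genes, list genes called (otherwise the largest and smallest difference), the 3 genes most like each member, and Dgcr8. Bag3, Des, Flnc, Ttn, Xist and Ddx3y were added after their values were seen. Members and lists were chosen with earlier results of these data known. Promoters came from RefSeq, positions from GENCODE M21.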

Additional observations from a re-analysis of the deposited data

How the results depend on the processing

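No paired analysis was possible because each genotype is 1 sample, cell numbers mark no pairs, and no test was run.

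The higher level in CM-like than in other control cells held for 6 of the 6 compared genes under every alternative run, except that Hspb3 was in too few cells to be compared in batch 2 alone. Its median of 5.19 became 6.22 with a pseudocount of 0.1, 3.99 with 10, 3.20 as a log2 ratio of mean TPM + 1, 6.36 as a difference of medians, 5.01 with no filter on genes (Hspb6 included), 5.47 in cells with at least 6000 detected genes, 5.74 without cells above 10% mitochondrial TPM, 4.43 with 4 clusters, 4.85 with clusters from 1000 variable genes, 5.63 in batch 2 alone, 6.42 against endothelial-like cells alone and, as an alternative chosen after seeing the data, 5.31 without the unnamed cluster.

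In the genotype comparison the median of −0.23 became −0.018 as a log2 ratio of mean TPM + 1 and 0.66 with 4 clusters, which add the mitochondrial cluster (36 control and 69 cKO cells), while the median over all genes became 0.18 and 0.14. Hspb3 was the 1 gene called except with a pseudocount of 10 and with mean TPM, where 0 were, and with 4 clusters, where Hspb3 and Hspb7 made 2. Its difference was negative under all 18 alternatives (−6.12 to −1.19). Hspb8 was also negative under all 18 (−2.53 to −0.30), Hspb1 positive under all 18 (0.22 to 1.17), Hspb2 negative except 0.75 with 4 clusters, Hspb7 positive except −0.15 in batch 2, and Cryab changed sign under 8 of 18. The cause of these changes was not tested.

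Counts over all genes in the genotype comparison (386 higher and 414 lower) moved to 732 and 865 with a pseudocount of 0.1, 135 and 97 with 10, 1111 and 316 with mean TPM, 815 and 162 with 4 clusters, 353 and 657 without cells above 10% mitochondrial TPM, 351 and 1035 with clusters from variable genes, 439 and 621 with medians, and 961 and 993 at 0.6. In control cells (973 and 472) the higher count ranged from 329 with 4 clusters to 2034 with clusters from variable genes. With 10 control cells in batch 2, a share of 80% had an interval from 44.4 to 97.5%, which covers counting error only.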

Other observations

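The unnamed cluster, led by mitochondrial transcripts, entered no genotype comparison. Its 2 cKO cells differed widely, with Hspb2 at 0.626 and 1540 TPM, Hspb1 between 3.70 and 52.8 TPM and Cryab between 2.01 and 24.1 TPM. In its 7 control cells Hspb1 was above 0 in all, with a median of 35.8 TPM and a highest value of 720 TPM, and Hspb3 was at 10 TPM or more in 1 cell, which held 314 TPM, above every CM-like cell of both genotypes. The 3 erythroid-like control cells held Hspb1 up to 404 TPM, Cryab up to 111 TPM and Hspb8 up to 292 TPM, while Hspb3 and Hspb6 were at 0 in all 3 and Hspb2 did not exceed 1.15 TPM.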
